A study of Rattus norvegicus with 2 samples.

Results

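Chaperones, cochaperones and chaperonins were examined in primary rat oligodendrocyte precursor cells (OPCs), the dividing glia from which myelin-forming oligodendrocytes arise. Members were the rows of the deposited expression table whose gene symbol begins with or equals a chaperone name (the HSP70, HSP90, HSP110, HSP60 and HSP10 families, small heat shock proteins, J-domain proteins, TRiC subunits, BAG and FK506-binding proteins, disulfide isomerases, Canx, Calr, Hyou1, Stip1, St13, Ahsa1, Ptges3, Hsf1 and Hsf2). The rule took 112 of 17202 genes and used no measured value. Of these, 105 were measured, meaning at least 1 CPM (a count scaled to library size) in 1 or both libraries, and 7 lay below that level (Cct6b, Hspa1l, Dnajb13, Dnajb7, Hspb7, Hspb2 and Cct8l1, each with at most 15 estimated counts in a library). The cells were wild-type cultures from rat brain, and 1 culture was given amyloid-beta (Aβ), the peptide of Alzheimer plaques, at 1 µM over 2 days, while the control received DMSO. Each condition gave 1 library. The text on treatment is the same for both samples and speaks of Aβ alone, and strain and number of animals remain unstated. Animal age is not spelled out. The sample titles carry a P1 that is not explained, and the labels name both adult OPCs and developing rats.

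Chaperones bind unfolded or partly folded proteins and keep them from aggregating. HSP70 proteins cycle between ATP and ADP under the control of J-domain proteins and nucleotide exchange factors, HSP90 acts later on kinases and receptors, and the TRiC chaperonin encloses actin and tubulin while they fold. The endoplasmic reticulum (ER) and the mitochondrion hold their own sets. The transcription factor HSF1 induces many cytosolic members through heat shock elements, and ATF6 and XBP1 induce ER members through ER stress elements. In oligodendrocyte lineage cells the ER set folds the membrane proteins of future myelin.

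Promoter windows show which members carry these elements around the annotated start of transcription, and 4 are printed here because they stand for the cytosolic, mitochondrial and ER sets. The sequences come from RefSeq (build GRCr8), each with the 250 bases before the annotated start, on the strand of the gene. Capitals mark the match to the heat shock element in Hsph1 and Hspe1, searched as GAA, 2 bases of any kind, TTC, 2 of any kind and GAA. In Hspa5 and Hsp90b1 they mark the ER stress element, searched as CCAAT, 9 bases of any kind and CCACG. Both strands were searched. The windows lie at chr12:10427118-10427367 (plus strand, Hsph1), chr9:64084077-64084326 (plus strand, Hspe1), chr3:38452766-38453015 (plus strand, Hspa5) and chr7:23012294-23012543 (minus strand, Hsp90b1).
Hsph1: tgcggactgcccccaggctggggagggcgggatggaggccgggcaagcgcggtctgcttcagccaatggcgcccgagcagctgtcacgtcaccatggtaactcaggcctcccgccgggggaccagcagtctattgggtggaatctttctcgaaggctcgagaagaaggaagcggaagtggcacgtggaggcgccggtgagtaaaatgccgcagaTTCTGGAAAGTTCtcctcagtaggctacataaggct
Hspe1: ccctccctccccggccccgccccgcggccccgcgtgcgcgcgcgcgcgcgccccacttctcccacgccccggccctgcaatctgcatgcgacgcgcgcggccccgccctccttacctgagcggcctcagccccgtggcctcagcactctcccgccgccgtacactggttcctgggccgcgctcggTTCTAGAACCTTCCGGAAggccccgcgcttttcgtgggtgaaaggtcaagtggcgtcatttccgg
Hspa5: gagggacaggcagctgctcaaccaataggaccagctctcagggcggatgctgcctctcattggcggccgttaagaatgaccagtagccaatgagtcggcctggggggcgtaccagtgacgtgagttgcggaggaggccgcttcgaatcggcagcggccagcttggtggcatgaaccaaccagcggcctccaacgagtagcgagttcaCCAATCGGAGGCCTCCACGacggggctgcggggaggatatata
Hsp90b1: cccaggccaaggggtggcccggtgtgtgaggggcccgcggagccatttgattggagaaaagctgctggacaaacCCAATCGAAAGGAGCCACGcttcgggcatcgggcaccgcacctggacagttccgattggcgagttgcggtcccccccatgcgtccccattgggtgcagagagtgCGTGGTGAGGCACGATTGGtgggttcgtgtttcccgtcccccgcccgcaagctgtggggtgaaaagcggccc

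Promoter entries of 300 bases (250 before the start and 50 after it) matched 91 of 112 members. The heat shock element was found in 6 of the 91 (Cct4, Dnaja1, Hspa8, Hspd1, Hspe1 and Hsph1), or 6.59%, and in 0.736% of all 27457 promoters of the same length. Hspd1 and Hspe1, the HSP60 chaperonin and its HSP10 lid, have overlapping windows on opposite strands, so the same stretch was counted for both, and it holds 2 overlapping matches. The ER stress element was found in 5 members (Calr, Canx, Dnajc3, Hsp90b1 and Hspa5), or 5.49%, and in 0.0765% of all promoters. Hsp90b1 held 2 separate matches, the first on its own strand and the second on the opposite one. The values of both sets in the 2 libraries are given with the ER proteins.

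Chaperone transcripts were abundant, and their order of abundance was nearly the same in both cultures. The 112 members together took 1.60% of all TPM (a level scaled for transcript length and library size) with Aβ and 1.56% with DMSO. By estimated counts the order was reversed, at 2.03% with Aβ and 2.04% with DMSO. The same 10 genes led in both libraries and held 46.3% and 46.4% of the members' TPM. The constitutive HSP90 gene Hsp90ab1 stood first at 2075 TPM with Aβ and 2004 TPM with DMSO, followed by the constitutive HSP70 gene Hspa8 at 1297 and 1273 TPM. The prolyl isomerase Fkbp1a (690 and 700 TPM) and the stress-responsive HSP90 gene Hsp90aa1 (644 and 649 TPM) came next. A level of 100 TPM or more was listed for 39 members with Aβ and 38 with DMSO. At the other end, Hspa1a, the classical heat-inducible HSP70 gene, was listed at 0 and 0.86 TPM. Both libraries thus had high levels of constitutive chaperones beside a barely detected inducible HSP70.

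**Figure D1:**
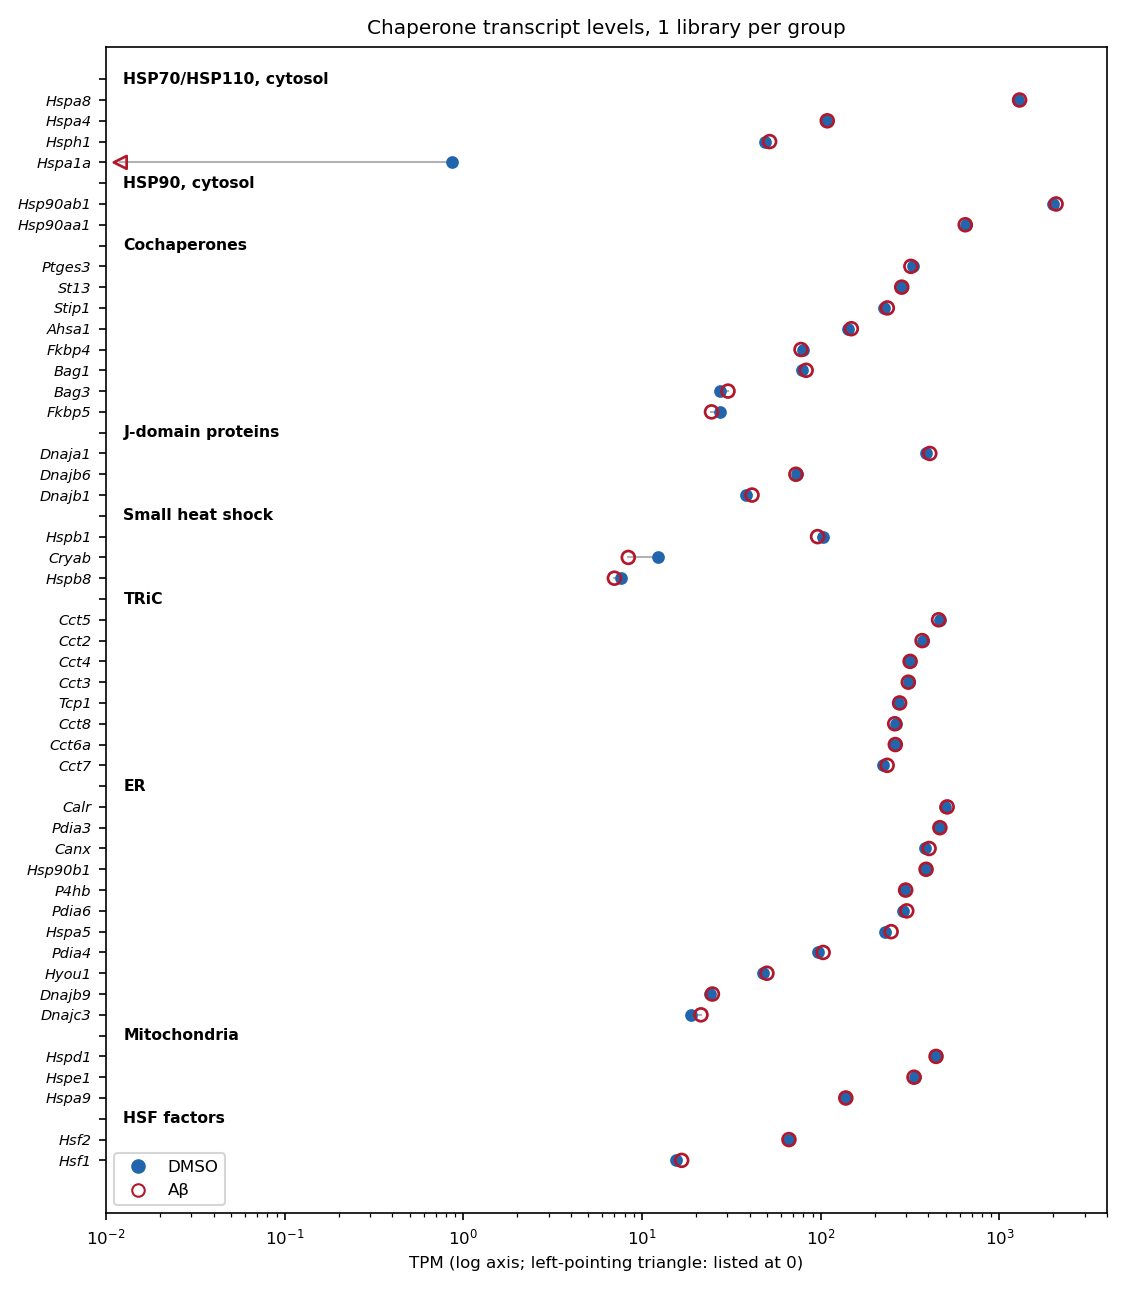
Levels of the panel members in TPM (log axis) by role, with DMSO as filled circles and Aβ as open circles, 1 library each. The paired circles overlap for nearly every gene, and Hsp90ab1 stands highest at 2004 and 2075 TPM. Cryab (8.37 and 12.26 TPM) and Hspa1a, a triangle where listed at 0, are visibly apart.

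The comparison asks whether 2 days with Aβ went along with other chaperone levels. Members differed little between the libraries. Each ratio below is Aβ over DMSO from estimated counts scaled to library size, with a 95% interval in brackets that covers counting error only. There is 1 library per condition, so no difference has a replicate check and no test was run. The median log2 ratio of the 105 measured members was 0.0040, with 53 above 0 and 52 below, beside -0.00071 for all 13510 measured genes (6716 above and 6794 below). With the authors' TPM the median was 0.039, with 75 above 0, beside 0.037 for all measured genes.

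By a rule of size (at least 2-fold, with an interval off 1), 0 members were higher and 1 was lower (Hspa1a). Over all measured genes the shares were 0.266% higher and 0.429% lower. At 1.2-fold with an interval off 1, Dnajb14 and Hspb11 were higher and Cryab and Hspa1a lower. That is 1.90% of measured members each way, close to 2.33% of all genes higher and 2.37% lower. Intervals lay wholly above 1 for 6 members (5.71%, beside 6.48% of all genes) and wholly below 1 for 12 (11.4%, beside 6.9%). With DESeq2 size factors that split was 8 above and 10 below, as Canx and Dnajc10 came to lie above 1 while Cct2 and Hspd1 came to hold 1. The interval lay within 1.5-fold for 96 of 105 members, or 91.4%, and for 80.0% of all genes. Members were also read more deeply than the typical gene, at a median of 59.5 CPM in the higher library against 33.1 CPM. The 50 members with 1000 counts or more in each library had ratios between 0.910 and 1.07.

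**Figure D2:**
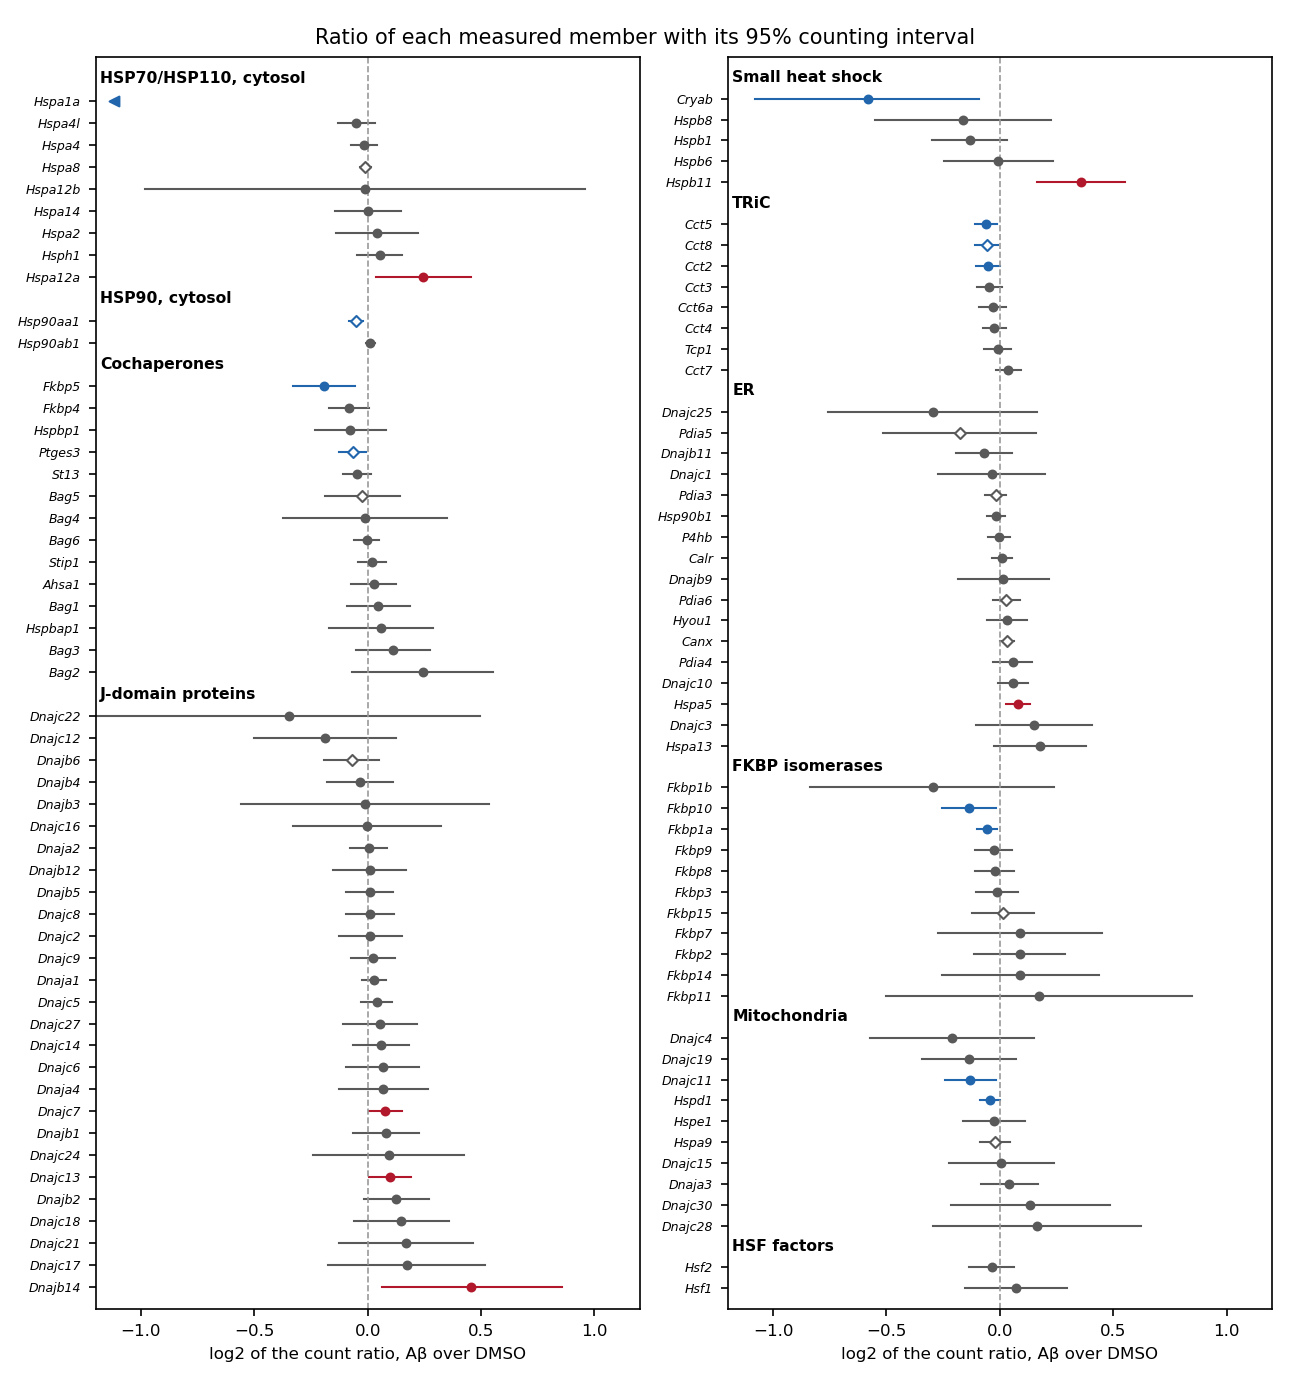
Log2 count ratio, Aβ over DMSO, of the 105 measured members by role, with 95% counting intervals as bars. Red marks the 6 intervals above 1 and blue the 12 below 1, open diamonds mark fractional counts and the triangle marks Hspa1a (0 counts with Aβ). Most members sit on the dashed line of no difference, and the widest bars belong to genes with few counts.

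Among cytosolic HSP70 and HSP110 proteins, the abundant members were level and Hspa1a stood alone. Hspa8, which serves protein folding, clathrin uncoating and chaperone-mediated autophagy, had 24504.84 estimated counts with Aβ and 24481.96 with DMSO (ratio 0.993, 0.975 to 1.01). The HSP110 exchange factors Hspa4 and Hsph1 stood at 0.989 (0.950 to 1.03) and 1.04 (0.969 to 1.11). Hspa12a, a distant HSP70 relative, had the highest ratio of the group, from 416 and 348 counts (1.19, 1.03 to 1.37). Hspa2 and Hspa14 stood at 1.03 and 1.00, and both intervals held 1. Of 9 measured members, 3 lay above a log2 ratio of 0 and 6 below (median -0.0085). The interval lay above 1 for Hspa12a and below 1 for Hspa1a, each 11.1% of the group, beside 6.48% and 6.9% of all genes.

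Hspa1a had 0 estimated counts with Aβ and 19.93 with DMSO, or 6.70-fold lower when a floor of 3 counts stands for the 0. With the counting error of both libraries, the upper limit of the ratio was 0.201. Its near-identical neighbour had the opposite order. The row that RefSeq names Hspa1b (listed as LOC108348108) had 29 counts with Aβ and 11.07 with DMSO (ratio 2.61, 1.27 to 5.80). Together both inducible HSP70 genes had 29 counts with Aβ and 31 with DMSO, or 0.928 as a ratio (0.540 to 1.59). The decimals of both rows add up to a whole number with DMSO, while with Aβ neither row has decimals, so only the DMSO library bears on the match. By decimals alone, 8 rows complete Hspa1a. Summed, inducible HSP70 was thus low in both cultures, and a difference within that interval was not detectable at this depth.

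The same check was made for all 13 members with fractional counts. A row was taken as sharing counts when its decimals completed those of the member to a whole number, within 0.015, in both libraries, and when it was either a near-copy by RefSeq name or a neighbour with at most 3 annotated genes between. Decimals alone also fit by accident, since 45 such rows were found in all. The 2 conditions left 4 near-copies and 4 neighbours, for 8 of 13 members. Hspa8 shared counts with the row of its pseudogene Hspa8-ps25 (listed as LOC689955), which held 10661.16 and 11111.04 counts. Their sum was 35166 and 35593 counts (ratio 0.980, 0.966 to 0.995). Hspa8 itself held 69.7% of that sum with Aβ and 68.8% with DMSO, and the rest stands under the pseudogene.

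Dnajb6 and the pseudogene row Dnajb6-ps10 (listed as LOC690183) summed to 1286 and 1387 counts. The sum had a ratio of 0.920 (0.852 to 0.993), while Dnajb6 alone stood at 0.952 (0.876 to 1.03). Ptges3 and Ptges3l1 summed to 4752 and 4917 counts (0.959, 0.921 to 0.998). The neighbours were Usp16 for Cct8, Maml1 for Canx, Ell3 for Pdia3 and Atp6v1c2 for Pdia6, with summed ratios of 0.971, 1.01, 0.983 and 1.02. Each of these sums takes in all counts of a different gene. For Cct8, 12 rows complete the decimals, so its pairing may be an accident. Over the 8 sums the ratios lay between 0.920 and 1.02. No partner of either kind was found for Hsp90aa1, Hspa9, Bag5, Pdia5 and Fkbp15.

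**Figure D3:**
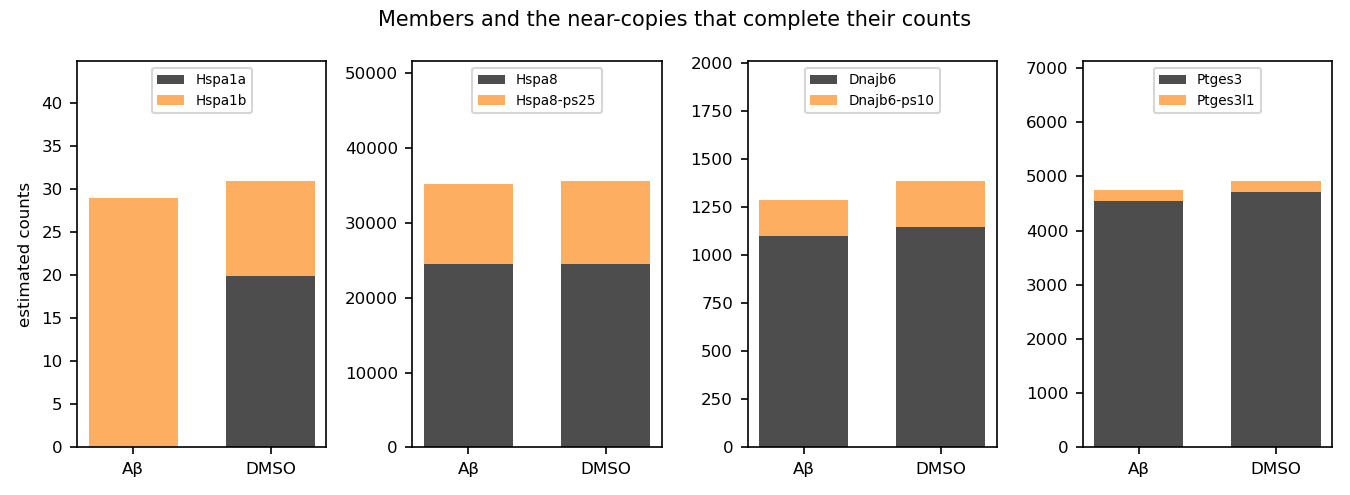
Estimated counts in each library for 4 members (dark) stacked with the near-copy that completes their decimals (orange), on linear axes from 0. Hspa1a and Hspa1b fill 29 counts with Aβ and 31 with DMSO in different proportions, and the other 3 pairs divide in nearly the same way in both libraries.

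The cytosolic HSP90 genes differed slightly from each other. Hsp90ab1 had 44455 counts with Aβ and 43724 with DMSO (ratio 1.01, 0.995 to 1.02). Hsp90aa1 had 16840.67 and 17306.23 counts (0.965, 0.945 to 0.986). Per length, Hsp90ab1 was 3.22 times Hsp90aa1 with Aβ and 3.09 times with DMSO. Hsp90aa1 had fractional counts, and the row that completes its decimals (listed as LOC103692716, with 852.33 and 1227.77 counts) has no RefSeq match. Summed with that row, Hsp90aa1 would stand at 0.947 (0.928 to 0.967). With TPM, Hsp90aa1 stood at 0.991 and Hsp90ab1 at 1.04, on a scale where the median member lies 1.03 times higher than by counts.

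Of 14 HSP70 and HSP90 cochaperones, 6 lay above a log2 ratio of 0 and 8 below (median -0.0082), and none passed 1.2-fold. Fkbp5, a steroid-receptor cochaperone that glucocorticoids induce, was lowest, with 821 and 930 counts (ratio 0.876, 0.796 to 0.963). Its relative Fkbp4 stood at 0.944 (0.888 to 1.003), and Ptges3, the p23 protein that closes the HSP90 cycle, at 0.955 (0.917 to 0.995). Stip1, the adaptor that hands clients from HSP70 to HSP90, stood at 1.01 (0.971 to 1.06), St13 at 0.967 (0.926 to 1.01) and Ahsa1, which speeds HSP90's ATPase, at 1.02 (0.950 to 1.09). Of these 6, the intervals of Fkbp5 and Ptges3 lay below 1 and the other 4 held 1. No other cochaperone had an interval off 1, so 14.3% of the group lay below, beside 6.9% of all genes. Among BAG proteins, which release nucleotide from HSP70, ratios lay on both sides of 1. Bag2 had 192 and 161 counts (1.18, 0.954 to 1.47) and Bag3 645 and 592 (1.08, 0.965 to 1.21). Bag1 had 869 and 834 counts (1.03, 0.939 to 1.14). Below 1 were Bag6 at 0.996, on 4939 and 4917 counts, Bag4 at 0.992 and Bag5 at 0.984, with intervals that held 1. Bag3 is a classical HSF1 target, and its interval held 1.

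J-domain proteins of the cytosol and nucleus, the partners that bring clients to HSP70, mostly had ratios slightly above 1. Of 27 measured, 21 lay above a log2 ratio of 0 and 6 below, with a median of 0.039. With TPM the median was 0.080, and 0.043 once centred on all genes. Intervals lay above 1 for 3 (11.1%, beside 6.48% of all genes) and below 1 for 0 (beside 6.9%). Dnajb14 was highest, with 130 counts against 94 (ratio 1.37, 1.04 to 1.81). It sits in the ER membrane with its J domain toward the cytosol, and its close relative Dnajb12 stood at 1.01 (0.901 to 1.12). Dnajc13, which works in endosomal sorting, stood at 1.07 (1.00 to 1.14), and Dnajc7, a client-recycling cochaperone, at 1.06 (1.00 to 1.11). These 2 rested on 1803 or more counts in each library. The stress-responsive Dnajb1 had 820 and 769 counts (1.06, 0.957 to 1.17), the abundant Dnaja1 5559 and 5410 (1.02, 0.982 to 1.06) and Dnajb6, a suppressor of amyloid aggregation, 1100.99 and 1146.91. Dnajc22 was lowest, from 23 and 29 counts (0.787, 0.435 to 1.41).

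Small heat shock proteins, ATP-independent holdases, rested on few counts, and Cryab was the only one of 5 measured members with an interval below 1. That is 20% of the group, beside 6.9% of all genes. An interval above 1 was also found for 1 member (20%, beside 6.48%). Cryab, the alpha-B crystallin chaperone of glia and lens, had 60 counts with Aβ and 89 with DMSO, or 8.37 and 12.26 TPM (ratio 0.669, 0.474 to 0.938). Hspb8, the partner of Bag3, stood at 0.893 (0.682 to 1.17) and Hspb1 (96.0 and 103 TPM) at 0.912 (0.813 to 1.02). Hspb6 was level at 0.995 (0.843 to 1.17). The only member above 1 was the row listed as Hspb11, with 496 and 384 counts (1.28, 1.12 to 1.47). RefSeq names this gene Ift25, a part of the intraflagellar transport train of cilia and not a classical small heat shock protein. The median log2 ratio of the 5 measured members was -0.13, and -0.0066 with a filter of 10 CPM, which left 3. The summed counts of all 5, 1536 with Aβ and 1515 with DMSO, had a ratio of 1.01 (0.936 to 1.08). That sum includes the 496 and 384 counts of the Hspb11 row, while the other 4 members each lay below 1.

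The TRiC chaperonin was high and uniform. Its 8 obligatory subunits lay between 235 and 457 TPM with Aβ and between 223 and 465 TPM with DMSO, a spread of 1.94-fold and 2.08-fold. Cct6b, a variant of Cct6a found in testis, had 8 and 12 counts. By counts, 7 of 8 subunits lay below a log2 ratio of 0, with a median of -0.039. Intervals lay below 1 for 3 (37.5%, beside 6.9% of all genes). These were Cct5 (ratio 0.959, 0.927 to 0.991), Cct8 (0.960, 0.927 to 0.995) and Cct2 (0.964, 0.931 to 0.999). Of the 3, the interval of Cct2 held 1 with DESeq2 size factors or total counts. The sum of Cct8 and its neighbour Usp16 had an interval of 0.939 to 1.004. That sum adds all counts of Usp16, another gene (839.11 with Aβ and 791 with DMSO), so it does not measure Cct8 alone. Cct3, Cct6a, Cct4 and Tcp1 stood at 0.968, 0.978, 0.983 and 0.994, and Cct7 at 1.03 (0.988 to 1.07). Summed over the 8 subunits, 44597 counts stood against 45262 (ratio 0.977, 0.965 to 0.990), beside 0.998 for the sum over all measured genes. Summed counts of other groups also had intervals off 1. Mitochondrial chaperones stood at 0.973 (0.953 to 0.994), FK506-binding isomerases at 0.973 (0.953 to 0.993) and cochaperones at 0.983 (0.966 to 0.9999). J-domain proteins stood at 1.03 (1.01 to 1.04) and the ER group at 1.01 (1.002 to 1.02). The intervals for cytosolic HSP70, cytosolic HSP90, small heat shock proteins and heat shock factors held 1. The TRiC subunits were read at a median of 381 CPM in the higher library, against 33.1 CPM for all measured genes. Their intervals are therefore narrower than those of the typical gene. With TPM the median was -0.0019 and 4 of 8 lay on each side, beside 0.037 for all genes.

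Of 17 ER chaperones and disulfide isomerases, 10 lay above a log2 ratio of 0 and 7 below, with a median of 0.016. Hspa5, the ER HSP70 (BiP) whose induction marks the unfolded protein response, had 5898 counts with Aβ and 5535 with DMSO (ratio 1.06, 1.02 to 1.097). It was the only ER member with an interval off 1, so 5.88% of the group lay above, beside 6.48% of all genes. Below 1 there were 0, beside 6.9% of all genes. With DESeq2 size factors Canx and Dnajc10, an ER disulfide reductase, were also above 1, and with total counts Canx was. The ER HSP90 Hsp90b1 had 10241 and 10268 counts (0.989, 0.962 to 1.02). The lectin chaperones Canx and Calr stood at 1.02 (0.999 to 1.04) and 1.01 (0.977 to 1.04), and the exchange factor Hyou1 at 1.02 (0.961 to 1.09). Intervals of all 5 disulfide isomerases held 1, with P4hb at 0.997 (0.965 to 1.03), Pdia3 at 0.987 (0.956 to 1.02), Pdia4 at 1.04 (0.979 to 1.11) and Pdia6 at 1.02 (0.978 to 1.06). Pdia5 was farthest from 1, on 140.92 and 158.38 counts (0.885, 0.7003 to 1.12). Among ER J-domain proteins, Dnajc3 had 271 and 242 counts (1.11, 0.931 to 1.33), Dnajb9, a sensitive target of XBP1, 422 and 414 (1.01, 0.881 to 1.16) and Dnajc25 74 and 90 (0.816, 0.591 to 1.12). Hspa13 was highest, at 1.13 (0.983 to 1.302).

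Members with an element in the promoter window stayed in the same narrow range. The 5 with an ER stress element had ratios between 0.989 and 1.11, with 4 above 1 and 1 below. The 6 with a heat shock element had ratios between 0.970 and 1.04, with 2 above 1 and 4 below. Each set held 1 member with an interval off 1, Hspa5 above and Hspd1 below. Over all measured genes 6.48% lay above and 6.9% below, and sets of 5 and 6 are too small to compare with those shares. With DESeq2 size factors or total counts the interval of Hspd1 held 1, and that of Canx lay above 1. A match describes the letters of the window only.

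The FK506-binding prolyl isomerases other than Fkbp4 and Fkbp5 divided 5 above and 6 below a log2 ratio of 0 (median -0.014). Fkbp10, an ER isomerase for collagen, had 1081 and 1178 counts (ratio 0.910, 0.837 to 0.989). Fkbp1a, the cytosolic target of rapamycin and FK506, had 8625 and 8894 counts (0.962, 0.934 to 0.991). Fkbp10 and Fkbp1a were the only 2 with an interval off 1 (18.2% below, beside 6.9% of all genes). Fkbp8 of the mitochondrial outer membrane and the nuclear Fkbp3 stood at 0.984 and 0.990, with intervals that held 1. The extremes were Fkbp1b, from 55 and 67 counts (0.814, 0.559 to 1.18), and Fkbp11, from 42 and 37 (1.13, 0.706 to 1.80).

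Mitochondrial chaperones were level or slightly lower, with 4 of 10 above a log2 ratio of 0 and 6 below (median -0.022). Hspd1 had 8981 counts with Aβ and 9180 with DMSO (ratio 0.970, 0.942 to 0.999), and Hspe1, which shares its promoter region, 885 and 893 (0.983, 0.895 to 1.08). Hspa9, the mitochondrial HSP70, had 3685.37 and 3707.33 counts (0.986, 0.942 to 1.03). Dnajc11, a cristae organiser, was the other member with an interval below 1, from 1229 and 1335 counts (0.913, 0.844 to 0.987). Hspd1 and Dnajc11 made up 20% of the group, beside 6.9% of all genes with an interval below 1. Dnajc4 was lowest at 0.864 (0.672 to 1.11) and Dnajc28 highest at 1.12 (0.816 to 1.54).

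The heat shock factors were at similar levels in both libraries. Hsf1 had 16.7 TPM with Aβ and 15.5 TPM with DMSO, from 342 and 323 counts (ratio 1.05, 0.899 to 1.23). Hsf2 had 66.4 and 66.1 TPM, from 1608 and 1635 counts (0.976, 0.910 to 1.05). Per length, Hsf2 was thus the higher of the pair in both cultures.

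A wider proteostasis list of genes outside the rule (prefoldins, unfolded protein response factors, protein degradation at the ER, mitochondrial proteases and further cochaperones) was read in the same way. Of 56 measured genes, 25 lay above a log2 ratio of 0 and 31 below (median -0.013), with intervals above 1 for 3 (5.36%, beside 6.48% of all genes) and below 1 for 6 (10.7%, beside 6.9%). The lowest were Grpel2, a mitochondrial nucleotide exchange factor, at 0.807 (0.690 to 0.943) and the ER oxidase Ero1a at 0.835 (0.715 to 0.974). The highest were the cochaperone Tomm34 at 1.11 (1.01 to 1.22) and the stress sensor Atf6 at 1.103 (1.03 to 1.19). Grpel2 was the only one past 1.2-fold with an interval off 1.

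TPM ratios lay above count ratios by about the same factor for most members and for most genes. Over 104 members with both ratios, the TPM ratio was 1.03 times the count ratio at the median. It lay on the opposite side of 1 for 24 of them, so that 75 were above 1 by TPM. With TPM centred on the median of all measured genes, 53 members lay above and 52 below, the same numbers as by counts. The length implied by counts and FPKM (the deposited fragment level per length) was longer with Aβ by 5.90 bases at the median of 85 members at 10 FPKM or more, and by 5.90 bases over all such genes. The ratios were over 1.2-fold apart for 1 member, beside 0.75% of all genes. This was Fkbp1b, a calcium-channel regulator, at 0.814 by counts and 1.15 by TPM (13.93 and 12.16 TPM), with an implied length of 372 bases with Aβ and 509 with DMSO. Its direction therefore differs between the units, on 55 and 67 counts. Fkbp7 (636 and 574 bases) and Fkbp11 (460 and 409 bases) had implied lengths that differed the other way.

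**Figure D4:**
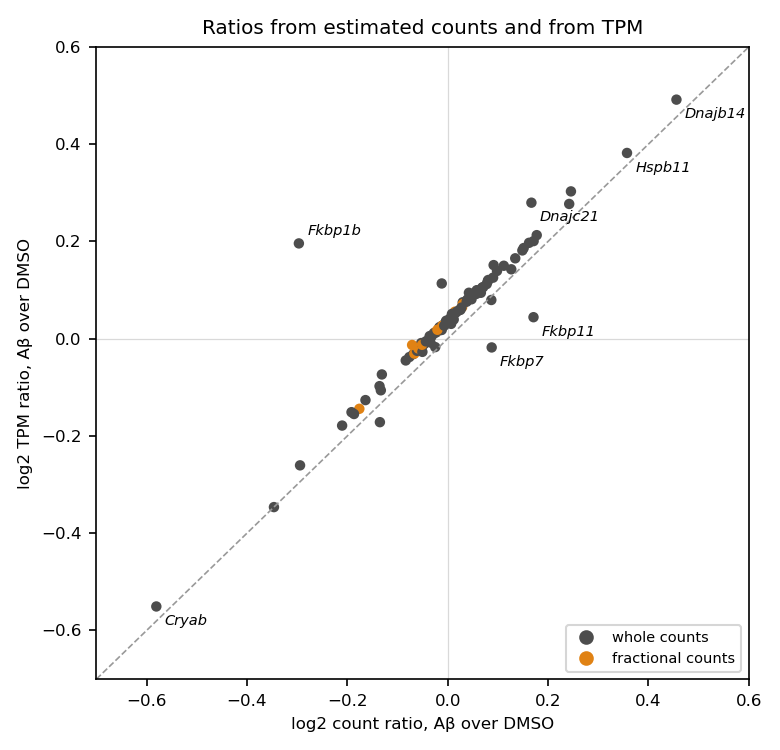
Log2 TPM ratio against log2 count ratio, Aβ over DMSO, for the 104 measured members with counts in both libraries, with orange points for fractional counts. Points follow a line just above the dashed diagonal (median 1.03 times), and Fkbp1b lies far off it, at 0.814 by counts and 1.15 by TPM.

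The libraries held 15117102 and 15019416 estimated counts. OPC markers were present (7 rows, summed 2183 TPM with Aβ and 2106 TPM with DMSO), as were astrocyte genes (1355 and 1292 TPM, with Gfap at 838.5 and 792.7 TPM) and neuronal genes (582 and 552 TPM). The neuronal sum rested mostly on Tubb3 (372 and 353 TPM) and Map2 (151 and 142 TPM). Syt1 (30.0 and 28.5 TPM), Snap25 (22.8 and 22.3 TPM) and Rbfox3 (6.39 and 6.28 TPM) were lower. Of the astrocyte genes, Slc1a2 (11.07 and 9.48 TPM) and Gjb6 (0.06 and 0.07 TPM) were low. Microglial markers (10.3 and 12.03 TPM), fibroblast and pericyte markers (5.37 and 4.93 TPM) and endothelial markers (0.58 and 0.62 TPM) were near 0. Cryab is also made by astrocytes and mature oligodendrocytes. Mature oligodendrocyte markers summed to 60.4 and 58.0 TPM. Single markers of both types went either way, such as Aldh1l1 at 36.96 and 40.76 TPM, Slc1a3 at 392 and 373 TPM, Mbp at 20.92 and 23.64 TPM and Mog at 18.25 and 15.55 TPM. The part of cell makeup in the ratio of Cryab was not tested. In bulk RNA, fewer cells of a type and less RNA per cell cannot be told apart.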

How the data were processed

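Messenger RNA libraries of 2 OPC cultures (1 with Aβ, 1 with DMSO) were built with a BGI kit, per the labels' protocols. Bowtie2 and build Rnor_6.0 are named in the submitters' processing notes, while versions, quantifier, annotation and strand use were not given in the sources used here. For each gene the authors deposited estimated counts (expected counts, 13.4% of rows fractional), TPM and FPKM, per the file headers. A deposited signal column, the normalized read count, equalled the count rounded up over 1 constant per library and was not used further.

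Counts were rounded for intervals. CPM used TMM effective sizes (edgeR 4.0.16, R 4.3.3, factors 1.00 and 0.999), fitted on the whole table. The log2 ratio had a pseudocount of 0.5 and a filter of 1 CPM, so differences of genes with few counts are understated. Intervals were exact Clopper-Pearson at 95%, conditional on the sum of both counts. A gene at 0 was set against a floor of 3 counts. No test fits 1 library per group, so no p-value was computed. The ratio code was tested on simulated data.

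Gene identifiers matched RefSeq (GRCr8, used for names and neighbours) for 112 of 112 members. Members, role groups, the wider list and the named panel were chosen with earlier results of these data known. Given in full were a panel of standard members, the highest and lowest of each role group, members past 1.2-fold, and members with fractional counts whose TPM ratio lay over 1.2-fold away, and other members could be named within their group. The rule for shared counts and the remark on Fkbp7 were chosen after their values were seen. Alternatives were DESeq2 1.42.0 size factors, total counts, TPM, filters, pseudocounts and whole counts alone.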

Additional observations from a re-analysis of the deposited data

How the results depend on the processing

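The median log2 ratio of all members ranged from -0.0016 with no filter to 0.039 with TPM, and was 0.0023 with TPM centred on all genes, an alternative chosen after seeing the data. The number of members past 2-fold was 1 and rested on Hspa1a. It was 0 with a filter of 10 CPM, 0 with pseudocount 5, 0 with whole counts alone and 0 after summing members with the row that completes their counts, the last an alternative also chosen after seeing the data. The filter and whole counts leave Hspa1a out. The number of intervals off 1 ranged from 14 with whole counts alone to 18. The median of the 2 cytosolic HSP90 genes was -0.019, 0.019 with TPM, -0.018 with TPM centred on all genes and 0.012 with whole counts alone, which leave only Hsp90ab1. All other role group medians and that of the wider list moved by less than the counting error (0.5 of the interval width) of their middle member under the alternatives run. Of 55 named members, 4 (Canx, Hsp90aa1, Hsp90ab1 and Hspa8) left their own interval with TPM and 0 with DESeq2 size factors or total counts. No paired analysis was possible because each group has 1 library. For the same reason no replicate could be left out. Depth limits the low members most, since a gene with about 20 counts per library, such as Hspa12b (0.506 to 1.94), has an interval that spans a 2-fold difference nearly either way.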
